A study of Mus musculus with 16 samples.

Results

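The genes described here encode the proteins of the cytosolic ribosome, measured by RNA-seq in B cells of mouse spleen sorted as follicular (FO) or marginal zone (MZ). They were chosen by symbol, as Rpl or Rps followed by a digit, or Rpsa, Rplp0, Rplp1 or Rplp2, without symbols that contain -ps (pseudogenes) and without the Rps6k kinases. Of 92 such genes, the 87 whose normalized counts averaged 10 or more over the 8 libraries were kept, out of 27928 genes in the table and 14761 genes with that mean. They comprise 43 core proteins of the 60S subunit, 3 proteins of its P stalk, 31 core proteins of the 40S subunit, 9 paralogs or retrocopies, and Rps19bp1, whose symbol fits but whose product is a binding partner of the ribosomal protein RPS19. Since the members were selected on their measured mean, their abundance is a description. Just inside the minimum lay Rpl6l (12.5), Rpl32l (15.1), Rpl23a (20.05) and Rps3a3 (25.6), and outside it Rpl39l (4.88), Rps3a2 (3.39), Rps27rt (3.37), Rpl3l (0.877) and Rpl10l (0.258), each given as its mean normalized count.

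WT mice were C57BL/6 without floxed alleles or Cre, and cKO mice carried floxed Gtf2i alleles and a Cre that is active in B cells, so that TFII-I, the transcription factor encoded by Gtf2i, was deleted there. The mice were 8 to 12 weeks old. B cells were enriched by negative selection, then sorted as CD21lo CD23hi (FO) or CD21hi CD23lo (MZ), with 2 libraries in each of the 4 groups. No source used here ties the 2 libraries of a group to separate mice, so each p-value measures only the spread between these libraries, which may be technical.

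A ribosome has a small (40S) subunit, which reads the mRNA, and a large (60S) subunit, which joins the amino acids, and each is built of rRNA and a set of proteins encoded by genes scattered over the chromosomes. Most of these proteins are needed in equal amounts, and many of their mRNAs begin with a C followed by a run of pyrimidines, the terminal oligopyrimidine (TOP) tract, through which mTORC1 and LARP1 control their translation. FO B cells are resting recirculating cells, whereas MZ B cells line the marginal sinus and are known to turn quickly into antibody-secreting cells when they meet antigen from the blood.

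The sequence at the start of these genes is shown first, because the TOP tract is the feature they are best known to share. RefSeq promoters of GRCm38.p6 held 64 of the 87 members. The motif searched was the letter C followed by at least 5 letters that were each C or T, on the strand of the gene only, with its first letter within 5 bases of the annotated start. It was found in 27 of the 64 members (42.2%) and in 11.9% of all 27025 genes with a promoter of the same length in that table. Among the 9837 of these genes with a mean of at least 10, the share was 13.3%. A match describes these letters and is not evidence that the mRNA starts there. Likewise, the lack of a match within 5 bases of the annotated start does not show that the mRNA lacks a TOP tract. Among the members not in the table were Rplp1, Rpl32, Rpl3 and Rpl23a. The windows below run from 15 bases before the start to 15 bases from it, with the matching run in capitals. Rplp0, Rplp2, Rpl22l1 and Rps2 differed between FO and MZ B cells, Rps27 and Rpl35a did not pass that test, and Rps6 is the substrate of the S6 kinases.
Rplp0, chr5:115559452-115559481, plus strand: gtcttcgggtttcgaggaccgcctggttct
Rplp2, chr7:141447636-141447665, plus strand: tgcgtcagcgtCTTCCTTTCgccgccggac
Rpl22l1, chr3:28805493-28805522, plus strand: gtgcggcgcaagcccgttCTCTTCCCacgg
Rps2, chr17:24720048-24720077, plus strand: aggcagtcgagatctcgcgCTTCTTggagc
Rps27, chr3:90213634-90213663, minus strand: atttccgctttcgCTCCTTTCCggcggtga
Rpl35a, chr16:33056467-33056496, plus strand: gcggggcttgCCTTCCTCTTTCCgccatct
Rps6, chr4:86857353-86857382, minus strand: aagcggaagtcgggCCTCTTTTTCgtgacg
Rplp0 held no match in this window, while Rplp2 and Rpl22l1 did. Members with and without a match had median log2 differences between FO and MZ of -0.21 (27 genes) and -0.21 (37 genes), and between cKO and WT of 0.21 and 0.21.

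The libraries were checked before the members were compared. Reads on genes lay between 21546552 and 25083552 per library, so counting error is small for all but the lowest members. The sorting markers followed the labels in both genotypes, with Cr2 (CD21) lower by 1.87 and Fcer2a (CD23) higher by 2.64 on the log2 scale in FO than in MZ B cells. Gtf2i itself ranged over 1992 to 2864 normalized counts in WT and 1523 to 1889 in cKO, so it was lower but far from absent in cKO, and whole-gene counts do not separate the deleted exons. Y-linked Ddx3y was at most 6.34 in WT and at least 2682 in cKO, so genotype and sex cannot be told apart. Of the 5 sex-linked transcripts checked (Xist and 4 on Y), 4 were higher in cKO. The other, Xist, was at -4.82 in FO and -9.95 in MZ B cells (log2, cKO minus WT). It was at 4.47 in FO minus MZ within cKO, where 4 were below 0, with no limma adjusted p under 0.173. The 5 summed to 20473 in cKO FO replicate 1 and to 11497 to 13188 in the other cKO libraries. In WT they summed to 25932 and 31053 in FO and to 42554 and 47018 in MZ B cells. Their part in the members' differences was not tested. The 6 erythroid markers summed to 13304 in cKO MZ replicate 1 against 25.9 to 1007 in the other libraries, and the 8 granulocyte markers to 1708 against 21.9 to 84.6. The 6 T cell markers, of which 1 had a mean of at least 10, summed to 729 to 1273, the 6 myeloid markers to 294 to 1160 and the 6 plasma cell markers to 14867 to 41216, against 125229 to 158649 for the 4 B cell markers. None of these markers was at 0 in every library, and their part in the members' differences was not tested. In bulk RNA, more cells of a type and more RNA per cell cannot be told apart.

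Ribosomal protein transcripts made up 3.33% and 2.87% (WT) and 3.51% and 3.77% (cKO) of the reads on genes in FO B cells, and 3.95% and 3.72% (WT) and 4.73% and 4.17% (cKO) in MZ B cells. Within each genotype both MZ libraries lay above both FO libraries, and within each subset both cKO libraries lay above both WT libraries, while across genotypes the FO and MZ ranges met, since cKO FO replicate 2 exceeded WT MZ replicate 2. Wilson 95% intervals, which cover counting error only, ran from 3.32% to 3.33% for the first of these shares and from 4.72% to 4.74% for the highest. The group means were 3.10% ± 0.33 and 3.64% ± 0.18 in FO and 3.83% ± 0.16 and 4.45% ± 0.40 in MZ B cells, WT first (SD, n = 2 each). The MZ mean was 1.24 times the FO mean in WT and 1.22 times in cKO, and the cKO mean was 1.17 times the WT mean in FO (1.09 times without WT FO replicate 2) and 1.16 times in MZ B cells.

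**Figure D1:**
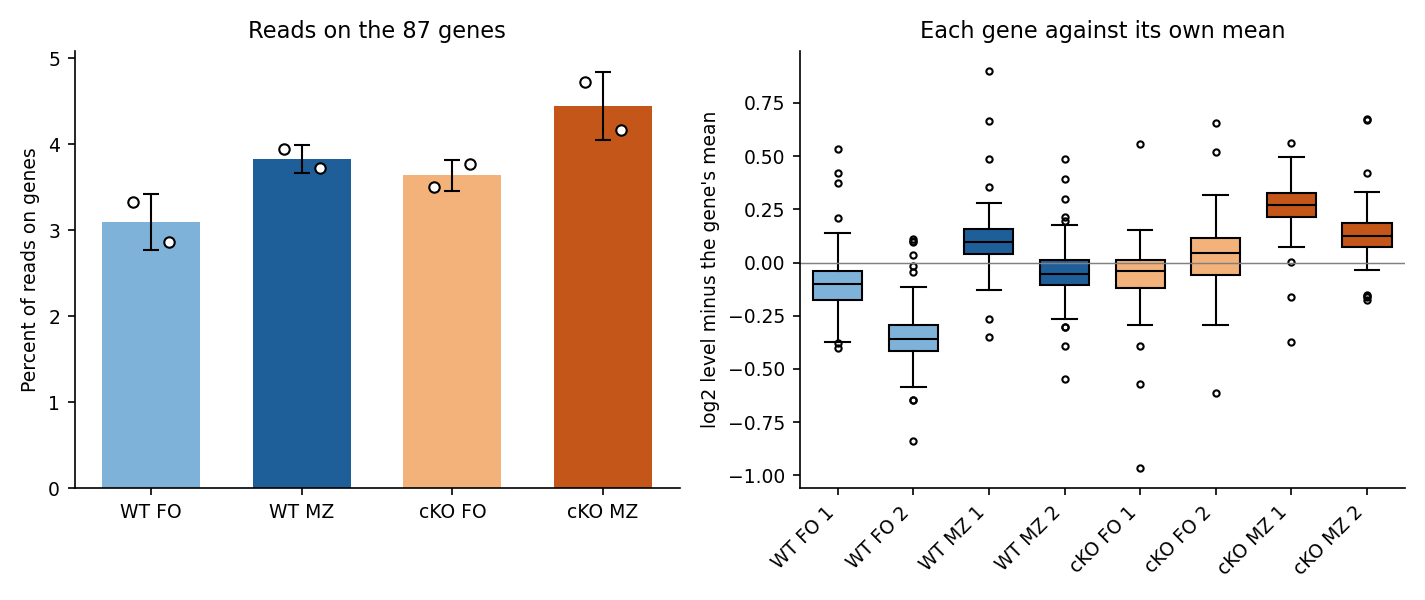
Left, percent of reads on genes that fell on the 87 genes, with bars for the mean of 2 libraries, error bars for 1 SD and circles for the libraries. Right, log2(normalized count + 1) of each gene minus its own mean over the 8 libraries, as boxes (median, quartiles, whiskers to 1.5 times the box, circles beyond) for the 87 genes in each library. WT FO replicate 2 is lowest, with a median of -0.36, and cKO MZ replicate 1 highest, with 0.27.

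Most members moved together from library to library. WT FO replicate 2 held the lowest value of 76 of the 87 members and cKO MZ replicate 1 the highest value of 70. Relative to each gene's own mean, the members' median on the log2 scale was -0.10 and -0.36 (WT) and -0.04 and 0.05 (cKO) in FO, and 0.09 and -0.05 (WT) and 0.27 and 0.13 (cKO) in MZ B cells, while that of all tested genes lay between -0.0028 and 0.0078. The same libraries were lowest and highest for the mitochondrially encoded transcripts, whose share of reads was 2.01% in WT FO replicate 2, 3.14% in cKO MZ replicate 1 and 2.29% to 2.76% in the others, so it was 1.25 (WT) and 1.24 (cKO) times as high in MZ as in FO. Its part in the members' differences was not tested.

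Levels of different genes were compared as normalized counts per kb of 1 annotated transcript per gene, a length that is too long for some genes. The 77 core members ranged from 35.8 to 79489 per kb with a median of 10770, and 46 of them were at 10000 or more. Rps27, a zinc-binding protein of the 40S subunit, was highest at 79489 per kb, above Rplp1 at 63873. The core members below 1000 per kb were Rpl21 (332), Rps10 (267), Rpl24 (88.7) and Rpl23a (35.8). Each of these encodes a protein that the ribosome holds in a single copy, like the core members near the median. Ribosomal protein genes have many processed pseudogenes, so the share of 50-base windows of each transcript with an exact copy elsewhere in the genome was computed, since a 50-base read from such a window has more than 1 place to align. This share was 94.5% for Rpl23a, 85.2% for Rpl24, 84.4% for Rps10 and 56.5% for Rpl21, but also 99.7% for Rps27. Over the 87 genes it had a Spearman correlation of -0.06 with the level per kb, and core members with at least 50% of such windows (55 genes) had a median of 10481 per kb against 11401 for the 22 others. How reads with more than 1 place were counted is not given in the sources used here, so the values of genes with many copies are uncertain.

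**Figure D2:**
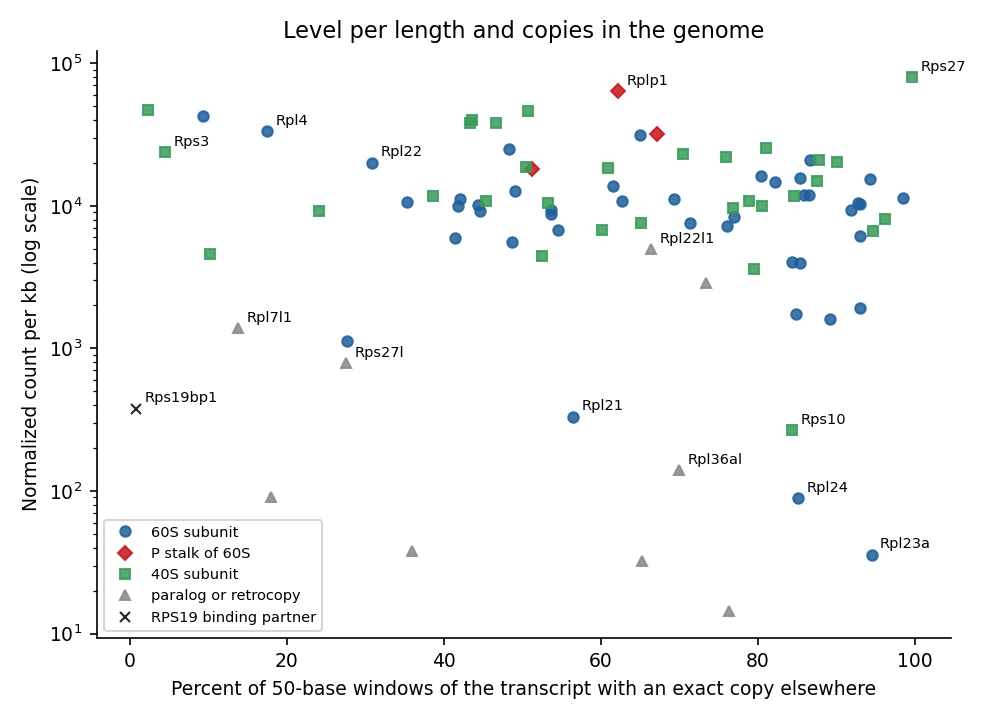
Mean normalized count per kb over the 8 libraries (log scale) against the percent of 50-base windows of the transcript that have an exact copy elsewhere in GRCm38, 1 point for each of the 87 genes. Rps27 has both the highest level and the highest share of copied windows, and Rpl21, Rps10, Rpl24 and Rpl23a lie far below the other core genes.

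In counts per gene, the most abundant members were Rpl4, Rps3 and Rpl8, which sit in the body of the 60S subunit, at the mRNA entry of the 40S subunit and near the peptidyl transferase centre. Rpl4 had FO values of 48115 and 42478 (WT) and 51200.4 and 48833 (cKO) normalized counts, and MZ values of 54272 and 49409 (WT) and 58443 and 55964 (cKO). Rps3 had normalized counts of 41230.0, 34315 (WT), 42399 and 50659 (cKO) in FO B cells against 46659.6, 43126 (WT), 54272 and 48968 (cKO) in MZ B cells, and Rpl8 35353 and 29619 (WT) and 36820.5 and 37739 (cKO) normalized counts in the FO libraries, and 37214 and 33662 (WT) and 39818 and 38512 (cKO) in the MZ libraries. In all 3 genes the lowest value was that of WT FO replicate 2 and the highest that of cKO MZ replicate 1, and none passed the tests below. The members' median mean was 8283 normalized counts against 433 for all 14761 genes, and 10 of them were among the 100 genes with the highest mean. They lay on 19 chromosomes, with 14 on chromosome 7 and 4 on X.

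FO and MZ B cells were compared first within each genotype. In WT, 79 of the 87 members were lower in FO than in MZ B cells by value, with a median log2 difference (FO minus MZ) of -0.25 against 0.0048 over all genes tested. Past a limma adjusted p of 0.05 and 1.5-fold, 3 members were lower (Rplp0, Rplp1 and Rpl22l1), or 3.45%, and none was higher, where 7.41% of all genes were lower. Without a fold cutoff 11 members (12.6%) were lower, against 9.41% of all genes. In cKO the median was -0.19, again with 79 below 0, and 0 members were called past 1.5-fold (limma, where 8.18% of all genes were lower and 24 members had an unadjusted p under 0.05 in that direction, as did 17.1% of all genes), while edgeR and DESeq2 on the recovered reads each called 1. Without a fold cutoff 8 members (9.2%) were lower in cKO against 10.3% of all genes, and all 8 were among the 11 of WT. Over the 87 genes the WT and cKO differences had the same sign in 81, with a Pearson r of 0.70 and a Spearman rho of 0.77 (0.89 and 0.83 over all genes tested).

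With the genotypes averaged, the median was -0.22, and 29 members passed a limma adjusted p of 0.05 as lower in FO and none as higher. That is 33.3% of the members against 17.1% of all genes. With 1.5-fold as well, only Rplp0 and Rpl23a passed, or 2.3% against 10.9% of all genes, so 27 of the 29 differed by less than 1.5-fold. Both FO libraries lay below both MZ libraries for 52 members in WT (59.8%, against 28.2% of all genes) and for 56 in cKO (64.4% against 32%). With all 4 FO set against all 4 MZ libraries, 17 members did not overlap (19.5% against 18.6% of all genes). Without WT FO replicate 2 the WT median was -0.12 and 2 of the 87 members passed as lower at any fold, where 7.63% of all genes did, and 18 passed with the genotypes averaged, where 17.2% of all genes did. Without cKO MZ replicate 1, the library with high erythroid markers, the cKO median was -0.12 with 0 members past the limma adjusted p (4.47% of all genes) and 8 at an unadjusted p under 0.05 (12.2% of all genes). With the genotypes averaged 14 passed, where 12.4% of all genes did.

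**Figure D3:**
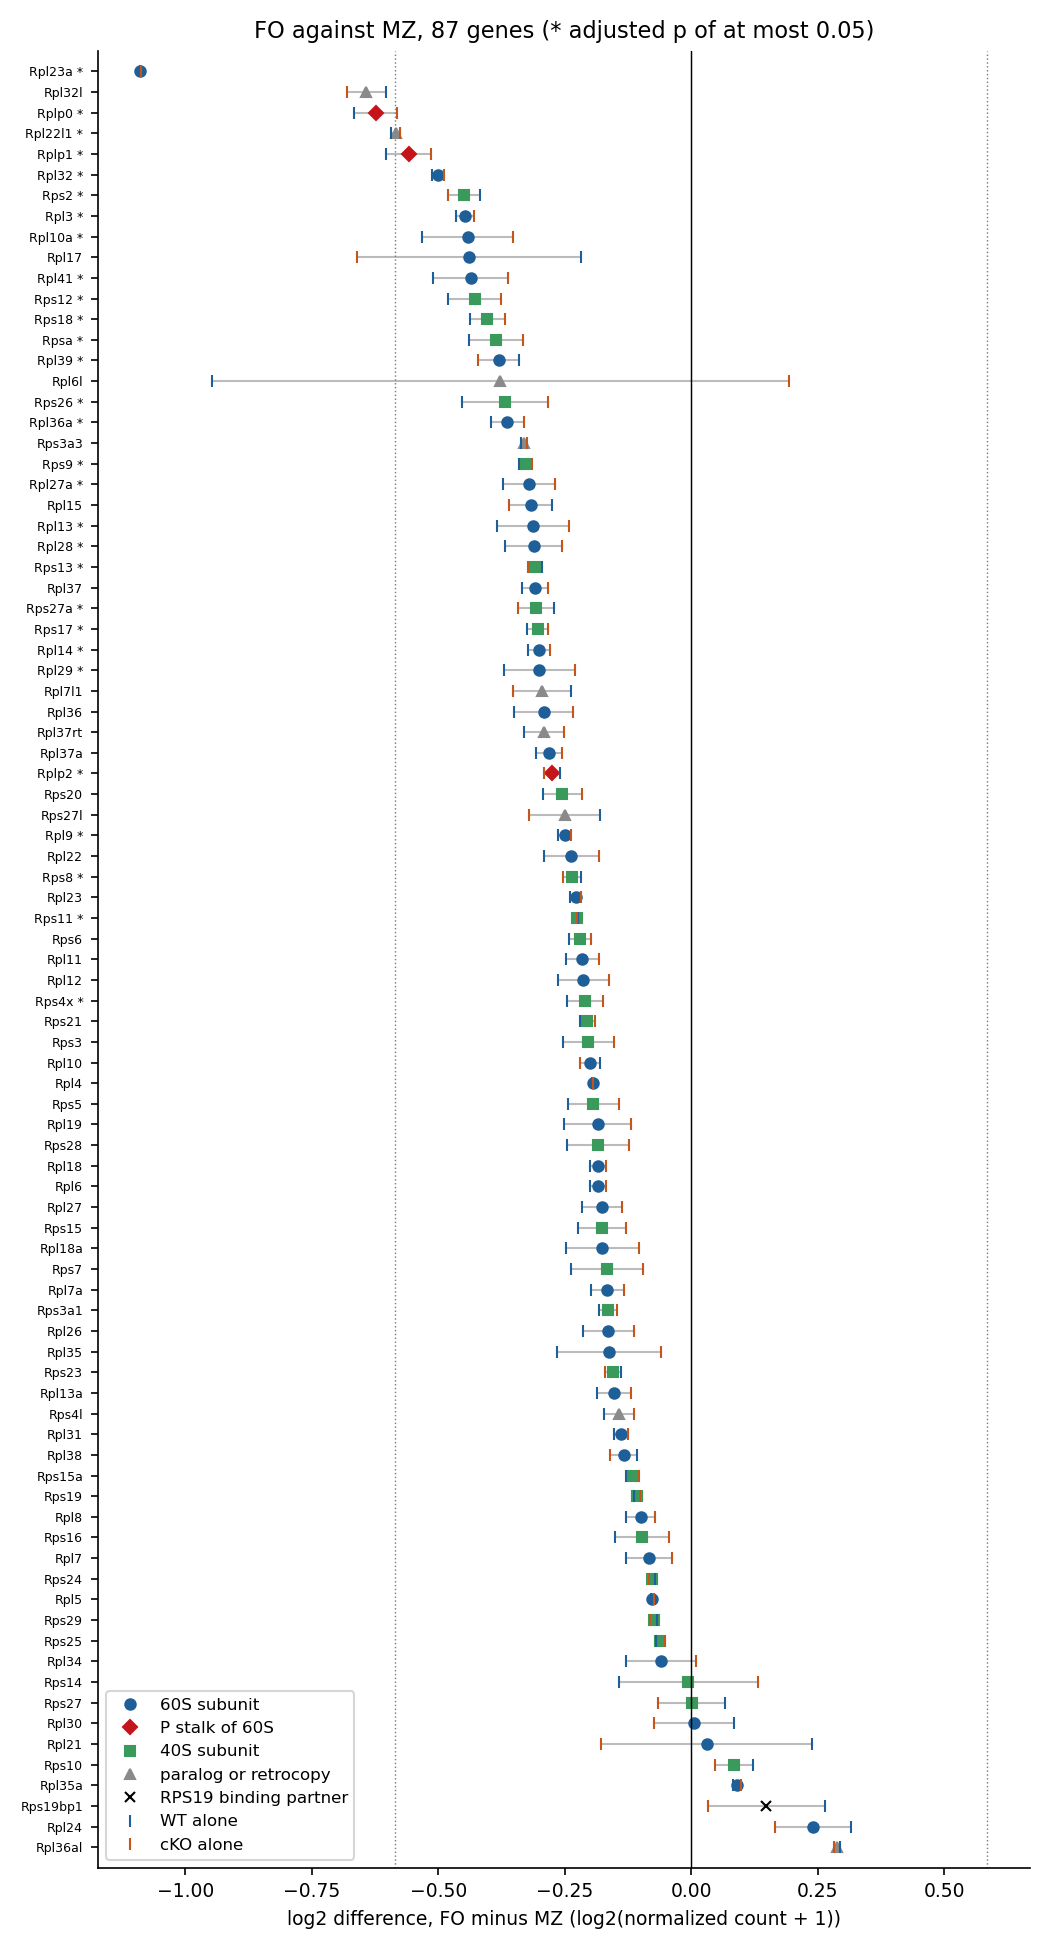
FO minus MZ difference of log2(normalized count + 1) for the 87 genes in order, averaged over the genotypes (symbols) and in WT and cKO alone (ticks). Dotted lines mark 1.5-fold, and a star marks a limma adjusted p of at most 0.05, which 29 genes reached, all of them lower in FO.

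The P stalk, a flexible arm of the 60S subunit that recruits the translational GTPases, was the group with the largest median difference of FO from MZ B cells (-0.56 over its 3 genes, against -0.21 for the other 60S and -0.20 for the 40S proteins). Rplp0 (ENSMUSG00000067274.10, chr5:115559467-115563727 of GRCm38, plus strand), the base of the stalk, had FO values of 18739 and 16602 (WT) and 22112 and 20274 (cKO) normalized counts, and MZ values of 29021 and 26978 (WT) and 33500.3 and 29959 (cKO). Every FO library lay below every MZ library. The log2 difference was -0.62 with the genotypes averaged (SE 0.0777, limma adjusted p = 0.000786), -0.67 within WT (limma, adjusted p = 0.00637) and, under 1.5-fold, -0.58 within cKO (limma, adjusted p = 0.00965). Without WT FO replicate 2 it was -0.58 with the genotypes averaged, also under 1.5-fold.

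Rplp1 (ENSMUSG00000007892.8, chr9:61913284-61914542 of GRCm38, minus strand), which with Rplp2 forms the dimers that carry the contacts to elongation factors, had normalized counts of 25998, 20821 (WT), 28233 and 28292 (cKO) in FO B cells against 36303, 34449.5 (WT), 43257 and 37628 (cKO) in MZ B cells. Again no FO library reached the lowest MZ library. Its log2 difference was -0.56 (SE 0.092, limma adjusted p = 0.0029), and -0.60 in WT, where it was -0.44 without WT FO replicate 2. Rplp2 had 11792 and 10772 (WT) and 13570.4 and 12589 (cKO) normalized counts in the FO libraries, and 14381 and 12673 (WT) and 16136 and 15849 (cKO) in the MZ libraries. The FO and MZ values overlapped here, since cKO FO replicate 1 exceeded WT MZ replicate 2. The difference was smaller, -0.28 (SE 0.0698, limma adjusted p = 0.0191). Both partners were lower in FO, and whether their differences were unequal was not tested.

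Among the 43 other proteins of the 60S subunit, 13 were lower in FO with the genotypes averaged (30.2%, against 17.1% of all genes) and none was higher. Rpl32, Rpl3, Rpl10a and Rpl41 are named here after their values were seen, as the largest of these among genes with high counts. Rpl32 (ENSMUSG00000057841.5, chr6:115805505-115808747 of GRCm38, minus strand) had FO values of 10538 and 9158 (WT) and 11563 and 11909 (cKO) normalized counts, and MZ values of 14841 and 13243 (WT) and 17599 and 15412 (cKO). Rpl10a (ENSMUSG00000037805.15, chr17:28328471-28331033 of GRCm38, plus strand) had normalized counts of 6194, 5773 (WT), 6857 and 6929 (cKO) in FO B cells against 8609, 8679 (WT), 9135 and 8478 (cKO) in MZ B cells. In both genes the FO and MZ libraries did not overlap, and in Rpl10a the replicates lay close together. The log2 difference was -0.50 for Rpl32 (limma adjusted p = 0.00241), -0.45 for Rpl3, which lines the peptidyl transferase centre (limma adjusted p = 0.00334), -0.44 for Rpl10a (limma adjusted p = 0.000961) and -0.44 for Rpl41, a very short peptide (limma adjusted p = 0.00334).

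Rpl5 and Rpl11, which form the 5S RNP and bind Mdm2 when ribosome assembly fails, did not pass. Rpl5 had 11155 and 9769.6 (WT) and 11407 and 11683 (cKO) normalized counts in the FO libraries, and 11539 and 10538 (WT) and 13094 and 11287 (cKO) in the MZ libraries, and Rpl11 had FO values of 8767 and 7333 (WT) and 8751 and 9701 (cKO) normalized counts, and MZ values of 9902 and 9161 (WT) and 11065 and 9880.5 (cKO). The subsets overlapped in both genes. The log2 difference was -0.08 for Rpl5 (SE 0.0776, limma adjusted p = 0.485) and -0.22 for Rpl11 (SE 0.0825, limma adjusted p = 0.0818).

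Rpl23a had the largest log2 difference of all members, -1.09 (SE 0.285, limma adjusted p = 0.0219), at very low counts. It (ENSMUSG00000058546.8, chr11:78180932-78183584 of GRCm38, minus strand) had normalized counts of 14.0, 11.4 (WT), 8.96 and 16.1 (cKO) in FO B cells against 29.9, 26.3 (WT), 23.9 and 29.9 (cKO) in MZ B cells. The FO and MZ libraries did not overlap. These are very few reads for a core protein of the 60S subunit, and over the alternatives the adjusted p by limma, edgeR or DESeq2 lay between 0.0171 and 0.0712. Rpl24, which reaches from the 60S toward the 40S subunit, also had low counts, 84.8 and 46.6 (WT) and 86.2 and 47.3 (cKO) normalized counts in the FO libraries, and 53.9 and 47.1 (WT) and 62.8 and 51.6 (cKO) in the MZ libraries. Its subsets overlapped, with a log2 difference of 0.24 (limma adjusted p = 0.542). Rpl35a, at FO values of 4228 and 3549.6 (WT) and 4154 and 4977 (cKO) normalized counts, and MZ values of 3785 and 3538 (WT) and 4423 and 4076 (cKO), was among the few members above 0, by 0.09 (limma adjusted p = 0.463), and was at -0.03 with quantile normalization.

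Of the 31 proteins of the 40S subunit, 12 were lower in FO with the genotypes averaged (38.7%, against 17.1% of all genes) and none was higher. None passed 1.5-fold as well, which 10.9% of all genes did. Rps2, at the mRNA entry channel, and Rps12 had the largest differences and are named after their values were seen. Rps2 had normalized counts of 3086, 2726 (WT), 3250.4 and 3094 (cKO) in FO B cells against 4302, 3487 (WT), 4391 and 4461 (cKO) in MZ B cells. Its FO and MZ libraries did not overlap, with a log2 difference of -0.45 (SE 0.0821, limma adjusted p = 0.00466), and for Rps12 it was -0.43 (limma adjusted p = 0.00533).

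Rpsa, also known as the laminin receptor, had 9543 and 7549 (WT) and 10104 and 10653 (cKO) normalized counts in the FO libraries, and 12485 and 10611 (WT) and 14130.3 and 12068 (cKO) in the MZ libraries. The subsets overlapped across genotypes, with cKO FO replicate 2 slightly above WT MZ replicate 2, and the log2 difference was -0.39 (SE 0.101, limma adjusted p = 0.0214). Rps27a, made as a fusion with ubiquitin, had FO values of 5788 and 4844 (WT) and 5851 and 6157 (cKO) normalized counts, and MZ values of 6553 and 6238 (WT) and 8012 and 7221 (cKO). All FO libraries lay below all MZ libraries, by -0.31 on the log2 scale (SE 0.0758, limma adjusted p = 0.0173). Rps10, which contacts incoming mRNA and is low in these data, had normalized counts of 177, 130.3 (WT), 129.9 and 114 (cKO) in FO B cells against 134, 145 (WT), 118 and 118 (cKO) in MZ B cells and a log2 difference of 0.09 (limma adjusted p = 0.69), with subsets that overlapped.

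**Figure D4:**
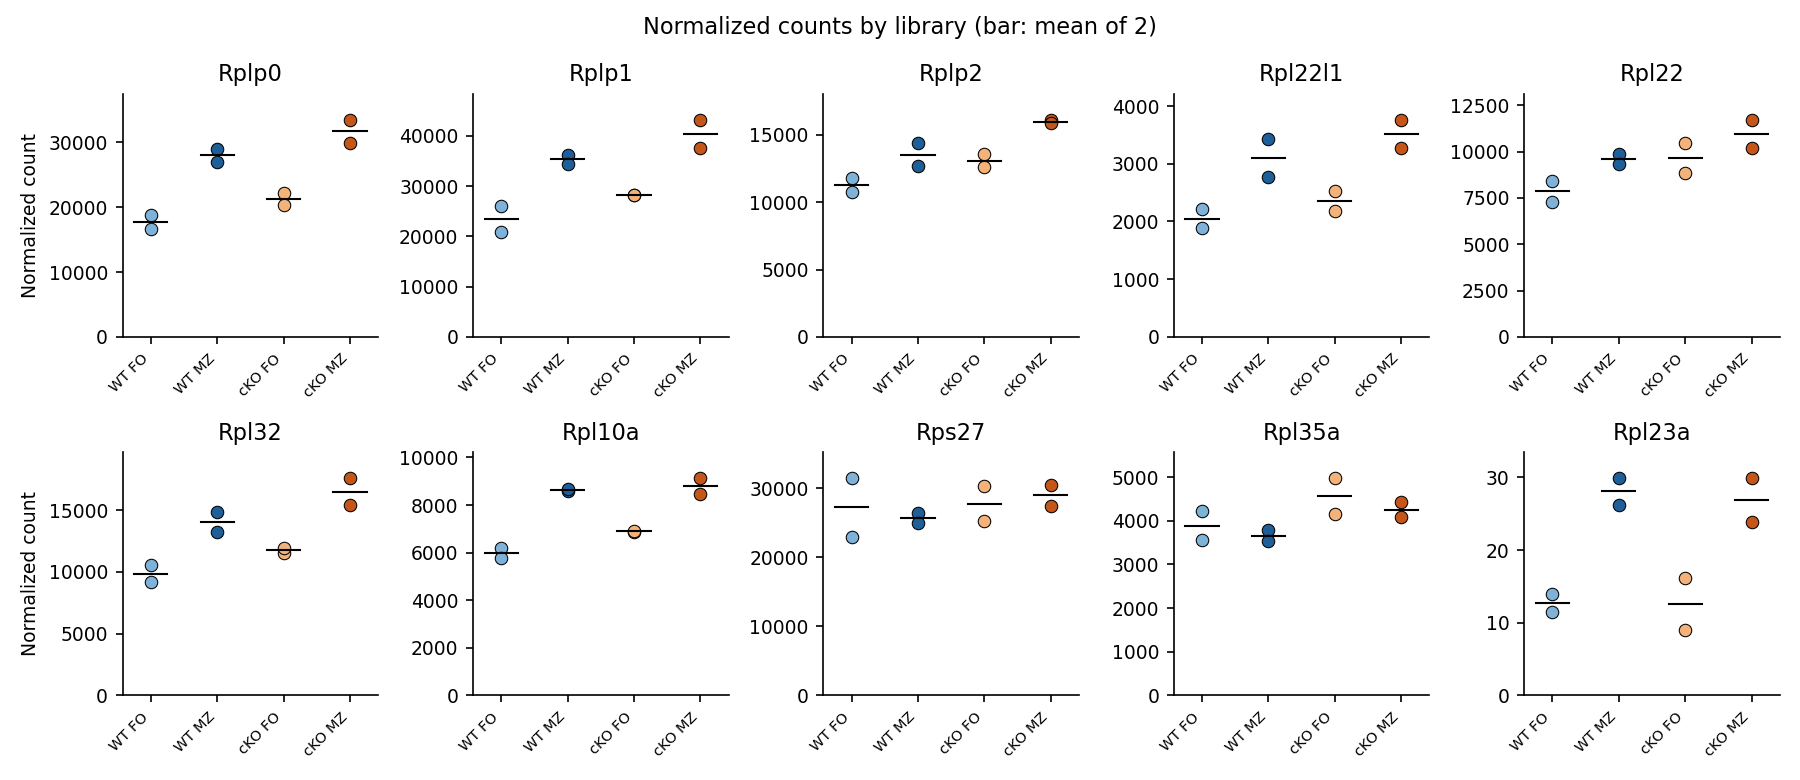
Normalized counts of 10 members in each library, with points for the 2 libraries of a group and a bar for their mean, on axes that start at 0. In Rplp0, Rplp1, Rpl22l1, Rpl32, Rpl10a and Rpl23a every FO point lies below every MZ point, while in Rplp2, Rpl22, Rps27 and Rpl35a the subsets overlap.

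The 9 paralogs or retrocopies ranged from -0.64 to 0.29 in the log2 difference of FO from MZ with the genotypes averaged. Rpl22l1 is the paralog of Rpl22, which is known for its part in lymphocyte development and for binding and repressing the Rpl22l1 mRNA. Rpl22l1 (ENSMUSG00000039221.10, chr3:28805436-28807424 of GRCm38, plus strand) had 2212 and 1887 (WT) and 2189 and 2529 (cKO) normalized counts in the FO libraries, and 3434 and 2766 (WT) and 3766 and 3269.8 (cKO) in the MZ libraries. Rpl22 had FO values of 8409 and 7288 (WT) and 8859 and 10466 (cKO) normalized counts, and MZ values of 9845 and 9326 (WT) and 11726 and 10192 (cKO). Every FO library was below every MZ library for Rpl22l1, whereas for Rpl22 cKO FO replicate 2 exceeded 3 of the MZ libraries. The log2 difference was -0.58 for Rpl22l1 (SE 0.101, limma adjusted p = 0.00364) and -0.24 for Rpl22 (SE 0.0863, limma adjusted p = 0.0701). Per kb, Rpl22 was at 20072 and Rpl22l1 at 4994.

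None of the other 8 paralogs or retrocopies passed the FO and MZ test. Rpl36al, an autosomal copy of X-linked Rpl36a, was the member with the highest value, 0.29 (SE 0.19, limma adjusted p = 0.284), from normalized counts of 74.8, 59.0 (WT), 79.5 and 114 (cKO) in FO B cells against 59.7, 48.9 (WT), 75.7 and 80.4 (cKO) in MZ B cells. Its subsets overlapped. Rpl7l1, a factor of 60S assembly, was at -0.30 (limma adjusted p = 0.0658) and Rps27l, a p53 target, at -0.25 (limma adjusted p = 0.187), with 1503 to 2219 and 296 to 484 normalized counts over the 8 libraries. The copies annotated as processed pseudogenes were Rpl37rt (529 to 1165), Rps4l (52.9 to 92.7), Rps3a3 (17.1 to 40.2), Rpl32l (7.61 to 19.9) and Rpl6l (7.61 to 23.1), with log2 differences of -0.29, -0.14, -0.33, -0.64 and -0.38. Reads can be shared between such copies and their parent genes. Rps19bp1, the gene that is no ribosomal protein, had 326 and 339 (WT) and 324 and 339 (cKO) normalized counts in the FO libraries, and 293 and 262 (WT) and 369.8 and 284 (cKO) in the MZ libraries and a log2 difference of 0.15 (limma adjusted p = 0.352).

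Of the 4 X-linked members, Rpl39 (-0.38, limma adjusted p = 0.0195), Rpl36a (-0.36, limma adjusted p = 0.0272) and Rps4x (-0.21, limma adjusted p = 0.0461) were lower in FO at under 1.5-fold, and Rpl10 was at -0.20 (limma adjusted p = 0.0584). Between cKO and WT, whose sex-linked transcripts differ, their log2 differences were 0.25, 0.26, 0.18 and 0.15, inside the range of the autosomal members.

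cKO was then compared with WT, to ask whether deletion of Gtf2i moved these genes. No member was called by limma in FO (0.0677% of all genes called in either direction), in MZ (0.0339%) or with the subsets averaged (0.108%), and the smallest limma adjusted p of a member with the subsets averaged was 0.63. edgeR and DESeq2 on the recovered reads also called 0 members in each of these comparisons, with a smallest adjusted p of 0.66 and 0.31. By value, however, nearly all members were slightly higher in cKO. The median log2 difference (cKO minus WT) was 0.22 in FO (80 of 87 above 0), 0.18 in MZ (82 of 87) and 0.21 with the subsets averaged (82 of 87), against -0.01 over all genes tested.

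With the subsets averaged, 40 members were higher in cKO at an unadjusted p under 0.05 and none was lower. That is 46% of the members against 2.88% of all genes, at a threshold that takes no account of the number of genes tested. Within FO and MZ alone it was reached by 12 and 3 members (1.35% and 1.58% of all genes). Both cKO libraries lay above both WT libraries for 58 members in FO (66.7% against 10.9% of all genes), for 51 in MZ (58.6% against 15.8%) and in both subsets for 42 (48.3% against 3.88%). Only Rpl13a, Rpl36al, Rps15a and Rps25 had all 4 cKO libraries above all 4 WT libraries (4.6% of the members and 1% of all genes). The genes of a library share its RNA, depth and scaling, so they are not independent replicates of the shift.

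The count at an unadjusted p depended on single libraries. Without WT FO replicate 2 the median was 0.10 in FO and 0.14 with the subsets averaged, and with the subsets averaged 4 members in place of 40 were higher and 1 was lower at an unadjusted p under 0.05, each way 2.52% of all genes. In FO alone 0 were then higher and 2 lower (1.51% and 0.766% of all genes), whereas without WT FO replicate 1 52 were higher (3.03%) and without cKO FO replicate 2 it was 2 (0.833%). Without cKO MZ replicate 1 the averaged count was 3 (2% of all genes), with medians of 0.10 in MZ and 0.17 with the subsets averaged. It was 6 without WT MZ replicate 2 (2.47%) and 8 without cKO FO replicate 2 (1.75%), but 64 without WT FO replicate 1 (4.16%). In MZ alone the count of 3 became 0 without cKO MZ replicate 1 or WT MZ replicate 2 (1.28% and 1.9% of all genes) and 7 without WT MZ replicate 1 (2% of all genes). In each of these cases at least 79 members stayed above 0 with the subsets averaged.

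**Figure D5:**
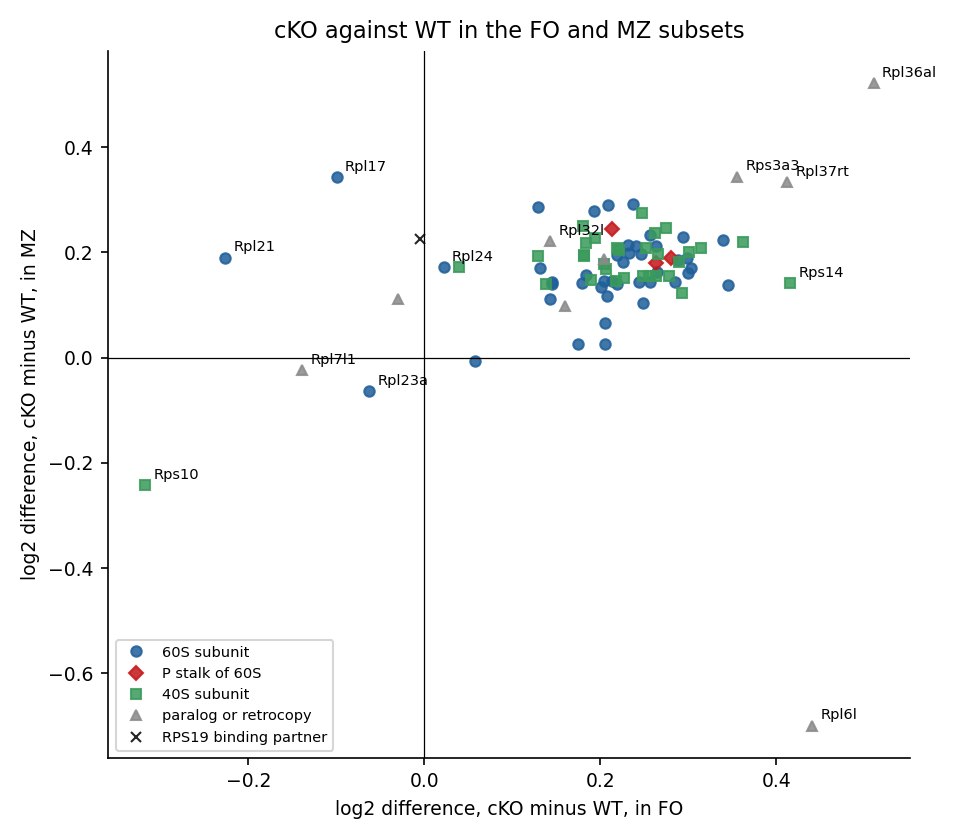
Log2 difference between cKO and WT (cKO minus WT, of log2(normalized count + 1)) in FO (horizontal) and MZ B cells (vertical), 1 point for each of the 87 genes. In 78 genes both differences are above 0, and the cloud is centred near 0.22 and 0.18, while Rps10, Rpl7l1 and Rpl23a are below 0 in both. The signs are the same in 81 of the 87 genes, and Rpl6l is among those with opposite signs.

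The highest log2 differences with the subsets averaged were those of Rpl36al, Rpl37rt, Rps3a3, Rps7 and Rpl36. Rpl36al, whose values are given above, differed by 0.52 (SE 0.19, limma adjusted p = 0.707), and every cKO library lay above every WT library at counts of 48.9 to 114. Rps7, a 40S protein that also binds Mdm2, had FO values of 17400.1 and 13876 (WT) and 18705 and 21332 (cKO) normalized counts, and MZ values of 18819.5 and 17855 (WT) and 22778 and 19988 (cKO). The genotypes did not overlap within either subset, and the difference was 0.29 (SE 0.0952, limma adjusted p = 0.667). For Rpl36 it was 0.28, for the copy Rpl37rt 0.37 and for the low-count copy Rps3a3 0.35 (limma adjusted p from 0.675 to 0.875).

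At the other end stood Rps10 (-0.28, SE 0.146, limma adjusted p = 0.798), Rpl6l (-0.13), Rpl7l1 (-0.08), Rpl23a (-0.06) and Rpl21 (-0.02). Rps10 was below 0 in both subsets, though its WT FO libraries differed between themselves more than the genotypes did. Rpl21 had normalized counts of 384, 274 (WT), 275 and 279 (cKO) in FO B cells against 297, 254 (WT), 319 and 308 (cKO) in MZ B cells, and only its WT FO replicate 1 stood apart. The P stalk genes were close to the median of the members, at 0.22 for Rplp0, 0.24 for Rplp1 and 0.23 for Rplp2, and so were the 60S (median 0.20) and 40S proteins (0.21).

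Whether the difference between FO and MZ depended on genotype was tested by an interaction term. Limma called 0 members and 0% of all genes, and 0 members had an unadjusted p under 0.05 (94 of all genes, or 0.637%, did). The members' median interaction was 0.04 on the log2 scale. Between FO and MZ B cells the members' differences between cKO and WT had a Pearson r of 0.21 and a Spearman rho of 0.23 over the 87 genes (0.50 and 0.37 over all genes tested), although 78 were above 0 in both.

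Other genes of the same pathway were read from lists chosen with earlier results in view. Rack1 and Fau, whose products are ribosomal proteins under symbols of another form, did not pass, with FO minus MZ of -0.20 and 0.08 and cKO minus WT of 0.16 and 0.14. Of 19 further genes known for TOP mRNAs, 7 (36.8%) were lower and 1 was higher in FO with the genotypes averaged (median -0.14), where 17.1% of all genes were lower and 16.3% higher. Npm1, a nucleolar chaperone, lay between 6095 and 7441 normalized counts in the 4 FO libraries and between 9740 and 11586 in the 4 MZ libraries, a difference of -0.61 (limma adjusted p = 0.000643) with no overlap. The elongation factor genes Eef1b2 (-0.51), Eef1g (-0.40) and Eef1d (-0.35), together with Pabpc1 (-0.34), Eif4b (-0.30) and Naca (-0.27), were lower too, whereas Nap1l1, a histone chaperone, was higher in FO by 0.62. In cKO against WT 17 of these 19 were above 0 with a median of 0.12, and none was called.

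Of 22 tested genes that regulate ribosomal protein output, 2 (9.09%) were lower and 4 (18.2%) higher in FO with the genotypes averaged. Of all genes, 17.1% were lower and 16.3% higher. Myc, which drives ribosome synthesis, was at a log2 difference of -1.61 (limma adjusted p = 0.00153). It ranged from 5852 to 12451 normalized counts in the FO libraries and 17298 to 31481 in the MZ libraries, which did not overlap. Mxd4, a Myc antagonist, was also lower in FO, at -1.09, while Tsc1, which restrains mTORC1, and Eif4ebp1, which mTORC1 inactivates, were higher by 0.51 each at under 1.5-fold, as were Eif4ebp2 (0.23) and Larp4b (0.21). Of 12 tested chaperones and importers of new ribosomal proteins, Pdcd2l (-0.91), Heatr3 (-0.58) and Ipo5 (-0.23) were lower (25%) and Nap1l1 was higher (8.33%). With 1.5-fold as well, 1 of them was lower (8.33%, against 10.9% of all genes) and 1 higher. Of 16 eIF2 and eIF3 subunits, only Eif3b (-0.22) passed, or 6.25%. Of 80 tested mitochondrial ribosomal protein genes, 5 were lower (6.25%) and 2 higher (2.5%) in FO, both shares below those of all genes, led by Mrpl52 (-0.74). With 1.5-fold as well, 1 was lower (1.25%) and 0 were higher. The medians of these genes were -0.07 between FO and MZ and 0.06 between cKO and WT.

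Transcript length was set beside both comparisons. Over the 87 members, the length of the annotated transcript had a Spearman rho of 0.01 with the FO minus MZ difference and of -0.30 with the cKO minus WT difference. Protein-coding genes outside the members with under 1000 exon bases (214 genes) had a median of -0.10 between FO and MZ and 0.11 between cKO and WT. The medians were -0.04 and 0.03 at 1000 to 2000 bases (1168 genes) and -0.03 and -0.0027 at 2000 to 4000 bases (3495 genes). Genes of at least 4000 bases (6583 genes) had 0.03 and -0.04. The members, which are short, had -0.22 and 0.21. The part of length in the members' differences was not tested.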

How the data were processed

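RNA-seq of 8 libraries was used, and the ATAC-seq samples of the series were not analysed here. Per the study's methods, the authors sequenced rRNA-depleted total RNA as 50 base single-end reads and aligned them to mm10 with HISAT2. They used featureCounts and htseq-count ahead of DESeq2. Which counter made the table, the annotation and the versions are not given in the sources used here. The deposited signal values were taken here as gene counts divided by 1 size factor per library, which the study's methods do not state. They are called normalized counts in the text. All of them were whole multiples of the value of 1 read within a tolerance of 0.01, which gave back the read counts and the depth of 21546552 to 25083552 reads per library. The largest relative difference from size factors recomputed with DESeq2 on those counts was 4.25e-06. Of the lines in the table, 256343 were blank and 27928 named a gene, of which 27872 were found in the GENCODE M21 annotation of GRCm38.

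Genes with a mean of at least 10 (14761) entered limma 3.58.1 (R 4.3.3) on log2(normalized count + 1) with 4 group means and a mean-dependent prior. Because of the added 1, a fold change understates the change of low genes. A gene was called past a Benjamini-Hochberg adjusted p of 0.05 and 1.5-fold, adjusted over all genes tested, and all tests were two-sided. Averages across genotypes or subsets are contrasts of the 4 group means. The alternatives were edgeR 4.0.16 and DESeq2 1.42.0 on the recovered counts, other scalings, filters, pseudocounts, cutoffs and samples, and each library left out in turn. The fits were tested on simulated data. Copies of transcript windows and promoter runs were found by exact matching with numba 0.67.0 and pandas 2.3.3 in Python 3.11.15, and plots were drawn with matplotlib 3.10.9. Named were members called in any comparison, the 5 highest and 5 lowest log2 differences in the averaged contrasts, the 3 most abundant members, all paralogs, X-linked members, chosen well-studied members, and called genes of the other lists. The members and the lists were chosen with earlier results of these data known.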

Additional observations from a re-analysis of the deposited data

Results flagged for a closer look

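Rpl6l, a processed pseudogene copy of Rpl6 just above the minimum mean, was marked because its difference between cKO and WT had opposite signs in the 2 subsets, every cKO FO library lying above every WT FO library and every cKO MZ library below every WT MZ library. Its normalized counts were 9.98 and 7.61 (WT) and 12.3 and 12.1 (cKO) in FO, and 23.1 and 13.6 (WT) and 8.97 and 12.4 (cKO) in MZ B cells. The log2 difference between cKO and WT was 0.44 in FO and -0.70 in MZ B cells, and the interaction was 1.14 on the log2 scale, which did not pass (limma adjusted p = 1). At about 10 reads per library, counting error alone is large.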

How the results depend on the processing

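Of 625 recomputed values, none turned the direction of a called difference. The members lower in FO past 1.5-fold numbered 3 in WT, 0 in cKO and 2 with the genotypes averaged. In WT they were 1 with only the 4 libraries compared, 8 with quantile normalization, 11 with no fold cutoff and 0 at 2-fold (31 members had an unadjusted limma p under 0.05). In cKO they were 1 with DESeq2, with edgeR and with TMM scaling, 5 with quantile normalization, 3 with scaling to all reads and 8 with no fold cutoff. With the genotypes averaged they were 6 with quantile normalization, 4 with scaling to all reads, 29 with no fold cutoff and 1 at 2-fold. Leaving out each library gave 0 to 6 in WT, where 0 was reached without WT FO replicate 2 and 6 without WT FO replicate 1, 0 to 1 in cKO and 0 to 4 with the genotypes averaged. The medians then lay between -0.378 and -0.122, between -0.257 and -0.122, and between -0.276 and -0.153.

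Between cKO and WT the count was 0 under every alternative, and leaving out each library gave medians of 0.105 to 0.358 in FO, 0.0938 to 0.253 in MZ and 0.141 to 0.276 averaged. The median interaction was -0.0736 to 0.169, below 0 without WT FO replicate 2 (-0.0736), WT MZ replicate 1 (-0.0287) or cKO MZ replicate 2 (-0.0212). With Fau and Rack1 added, a choice made after seeing the data, the summed share was 4.09% in WT MZ and 3.88% in cKO FO. Named members without a call changed sign: between FO and MZ, Rps10 (-0.024 to 0.194 leaving out libraries) and Rpl35a (-0.0305 with quantile normalization), and between cKO and WT, Rpl6l (-0.311 to 0.0519), Rpl7l1 (-0.175 to 0.0124), Rpl23a (-0.259 to 0.132) and Rpl21 (-0.14 to 0.103, and 0.0019 with scaling to all reads). The cause was not tested.

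With the replicate number as a block, 3, 0 and 2 members passed as before, and 17, 15 and 36 at any fold in place of 11, 8 and 29. Deviations of same-numbered libraries correlated at 0.59 between FO and MZ in WT and at 0.29 between WT and cKO in FO over all genes, but at -0.0015 between FO and MZ in cKO and at -0.30 between WT and cKO in MZ. No source used here says what the numbers mark, so they were not taken as pairs. With the numbers of cKO MZ exchanged, chosen after seeing the data, the counts were again 3, 0 and 2.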
